A study of Homo sapiens with 6 samples.

Results

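Small nucleolar RNA host genes are transcribed RNAs whose introns carry small nucleolar RNAs (snoRNAs). The genes described here are the 34 gene symbols, of 43424 in the count tables, that were SNHG followed by a number or were GAS5, DANCR, ZFAS1, EPB41L4A-AS1 or MEG3. They were chosen by name, with earlier results of these data known. They were measured in HL-60, a human acute myeloid leukaemia line, wild type by label. The 3 libraries labelled CIP came from cells exposed to the plant Corydalis incisa (Thunb.) Pers. in steps raised from 2 to 20 µg/ml over 6 months, and described by the series as resistant to it. The 3 libraries labelled DMSO came from HL-60 cells exposed to DMSO over the same time, and the groups are called CIP and DMSO libraries here. The series set out to look for genes that take part in the CIP-induced differentiation of acute myeloid leukaemia cells. The labels name no clone and do not say that replicates came from separate cultures, so each p-value reflects the variation among these samples alone, possibly technical.

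After splicing, a host gene's intron is trimmed to release the snoRNA, which joins a protein complex in the nucleolus or, for the related scaRNAs, in the Cajal body. Box C/D snoRNAs guide 2′-O-methylation and box H/ACA snoRNAs guide pseudouridylation, mostly of ribosomal RNA. The spliced host RNA often encodes no protein, and several of them are degraded by nonsense-mediated decay when they are translated. Many start with a C followed by a run of pyrimidines, the 5′ terminal oligopyrimidine (5′ TOP) start that ribosomal protein genes also have. GAS5 was first found as a gene that accumulates in growth-arrested cells, and MEG3 is an imprinted long noncoding RNA.

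The RefSeq annotation of GRCh38.p14 lists all 34 genes as long noncoding RNAs, on 16 chromosomes. Of these, 31 hold at least 1 annotated snoRNA or scaRNA, and MEG3, SNHG27 and SNHG28 hold none. Box C/D snoRNAs alone lie in 13 genes, box H/ACA snoRNAs alone in 12, scaRNAs alone in 4, and both box types in GAS5 and SNHG12. Together they hold 149 such symbols, 83 of them inside SNHG14 and 66 elsewhere. The following 4 snoRNAs are shown because their counts are set against their host gene further on. Their sequences come from the GENCODE v29 transcripts (GRCh38). In the 3 box C/D snoRNAs the capitals mark the C box (TGATG) and the D box (CTGA), which bind the core proteins, and in the H/ACA snoRNA they mark the ACA near the 3′ end. SNORD104 lies at chr17:64146083-64146152 on the plus strand inside SNHG25. SNORD60 lies at chr16:2155023-2155105 on the minus strand inside SNHG19. SNORD49A lies at chr17:16440036-16440106 on the plus strand inside SNHG29. SNORA24 lies at chr4:118279190-118279320 on the plus strand inside SNHG8.
SNORD104: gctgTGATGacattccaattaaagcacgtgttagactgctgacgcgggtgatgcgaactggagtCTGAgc
SNORD60: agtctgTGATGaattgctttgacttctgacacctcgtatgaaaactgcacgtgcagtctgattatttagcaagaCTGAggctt
SNORD49A: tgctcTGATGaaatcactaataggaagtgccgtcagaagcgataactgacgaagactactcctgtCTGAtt
SNORA24: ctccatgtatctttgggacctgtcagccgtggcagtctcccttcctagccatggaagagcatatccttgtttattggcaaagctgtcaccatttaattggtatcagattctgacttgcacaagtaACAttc

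The start of each host gene was read from RefSeq's table of promoters on GRCh38.p14, which holds 30 of the 34 genes. SNHG6, SNHG9, SNHG15 and SNHG25 are not among them. Only the first listed start of each gene was used, for host genes and for all promoters, so other starts were not searched. Of the 30 host genes, 7 start with a C that opens a run of at least 5 pyrimidines (23.3%), against 4.04% of all 27305 promoters taken this way. They are SNHG4, SNHG5, SNHG12, SNHG18, SNHG19, SNHG32 and ZFAS1. The letters TATAA stand 20 to 35 bases before the start in 6 of the 30 genes (20.0%) and in 4.01% of all promoters, a search added after the sequences were seen. These 6 are SNHG5, SNHG7, SNHG8, SNHG12, SNHG19 and ZFAS1. The starts of 4 genes with the run and 2 without it are shown as 60 bases on the transcribed strand, 30 of them before the start, with the run in capitals. SNHG5 (chr6:85678704-85678763, minus strand) was lower in CIP libraries, while ZFAS1 (chr20:49278612-49278671, plus), SNHG12 (chr1:28581844-28581903, minus) and SNHG19 (chr16:2155329-2155388, minus) were higher, so the run was found in genes that differed in both directions. SNHG16 (chr17:76557734-76557793, plus) and SNHG17 (chr20:38435299-38435358, minus), both higher, have no such run at the listed start. In both, a run of pyrimidines begins a few bases further on, which the search did not include.
SNHG5: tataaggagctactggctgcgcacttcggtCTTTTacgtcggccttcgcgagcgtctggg
ZFAS1: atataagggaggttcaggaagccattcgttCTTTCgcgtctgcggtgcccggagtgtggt
SNHG12: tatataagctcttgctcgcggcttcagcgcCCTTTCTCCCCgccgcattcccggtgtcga
SNHG19: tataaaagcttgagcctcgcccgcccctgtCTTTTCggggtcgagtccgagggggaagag
SNHG16: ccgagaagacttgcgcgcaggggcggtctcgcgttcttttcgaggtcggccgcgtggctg
SNHG17: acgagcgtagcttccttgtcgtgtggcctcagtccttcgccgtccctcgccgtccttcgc

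The other motifs searched were in few of the 30 host gene promoters. On both strands of the 300 bases, the E-box CACGTG, the core site of MYC, was in 2 host gene promoters (6.67%) and in 7.43% of all. CCGGAAG, the core of ETS family sites, was in 2 (6.67%) and in 10.7% of all, and TATAAA, which can overlap TATAA, in 5 (16.7%) and in 11.95% of all. On the transcribed strand within 20 bases of the start, CTTTCC was in 1 host gene promoter (3.33%) and in 2.19% of all, and CTCTTTC in 0 of them and in 0.722% of all. The median GC content was 62.2% in the host gene promoters and 58.3% in all of them. A match describes letters in this window only.

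The libraries held 8143657 to 10868396 counts. QuantSeq reads 1 short stretch near the polyadenylated end of a transcript, so values are given as CPM, counts scaled to a common library total, without division by length, and with TMM, edgeR's correction for unequal make-up of libraries. The labels were checked against marker genes. MPO, the myeloperoxidase of granulocyte precursors for which HL-60 is known, stood at 8684 ± 282 CPM in CIP libraries and at 1.12 ± 0.324 CPM in DMSO libraries (SD, n = 3 each). MYC, amplified in HL-60, stood at 280.1 ± 52.3 CPM in CIP and 41.8 ± 3.91 CPM in DMSO libraries. The low MPO goes against what the HL-60 label of the DMSO libraries leads one to look for, and its cause was not tested. Of 11 myeloid identity genes, 8 were higher with CIP and 3 lower. The 3 lower were CTSG (log2 fold change -2.78), ELANE (-0.83) and AZU1 (-0.80). Over all genes tested, 34.9% were higher and 38.2% lower. Of 17 markers of other blood and tissue cell types, 8 could be tested, 1 was higher and 5 were lower, and HBG1, MS4A1 and PF4 were among those with 0 counts in every library. Summed over each list, the identity genes reached 10262 to 10897 CPM in CIP libraries and 1805 to 1946 CPM in DMSO libraries. MPO made up most of the identity sum in CIP libraries, so the identity sums largely repeat its difference. The other markers summed to 95.5 to 110.2 CPM with CIP and 304 to 367 CPM with DMSO. The part of these differences in the host gene results was not tested. In bulk samples fewer cells of a type and less RNA per cell cannot be told apart.

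Host genes differed between the groups in both directions, with more of them higher than lower. Of the 34, 29 had enough counts to be tested. In edgeR's quasi-likelihood test, 15 were higher in CIP libraries (51.7%) and 5 were lower (17.2%) at an adjusted p under 0.05, and 9 were not called. Across all 12844 genes tested, 34.9% were higher and 38.2% lower. In all, 20 of the 29 were called (69.0%), while 73.1% of all genes were, so being called at all is near the background. The adjusted p-values of the called host genes ran from 3.4e-20 to 3.0e-05. The median log2 fold change was 0.47 over the 29 host genes and -0.03 over all genes tested. SNHG14 passed the low-count filter through the CIP libraries alone, so once tested it had to differ. Without it 14 of 28 host genes were higher and 5 lower, and the median was 0.45.

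The groups did not overlap in 20 host genes. The CIP libraries lay above in 15, 14 without SNHG14 (as in 36.1% of all genes). The DMSO libraries lay above in 5 (as in 39.3% of all genes). A called change of at least 2-fold was seen upward in 8 host genes, 7 without SNHG14 (as in 15.0% of all genes), and downward in 1, SNHG21 (as in 24.0% of all genes). Tested against a change of 1.5-fold with edgeR's glmTreat, 9 host genes were higher and 4 lower, or 13 of 29, beside 45.2% of all genes. SNHG14, which had to differ once tested, is among these 9. Scaling by library totals alone, in place of TMM, moved the median log2 fold change of all genes to -0.26 and that of the host genes to 0.24. It also raised the share of called genes that were lower to 63.2% of all genes called, against 52.3% with TMM. With it 15 host genes were still higher and 8 were lower.

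**Figure D1:**
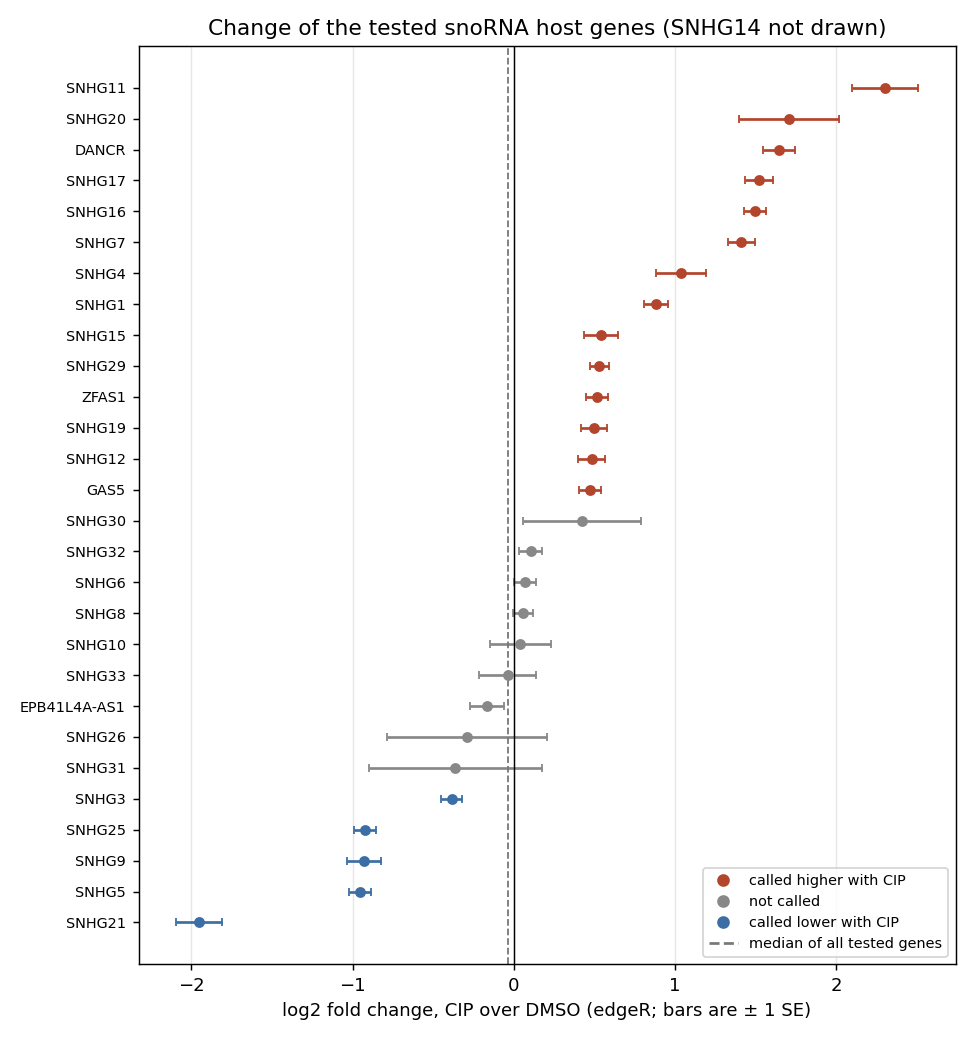
Log2 fold change, CIP over DMSO, of the tested snoRNA host genes except SNHG14, with bars of 1 SE from edgeR. The points run from -1.95 (SNHG21) to 2.30 (SNHG11), and the dashed line is the median of all tested genes at -0.03.

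The 8 called host genes that differed most, among those reaching 10 CPM in the higher group, are given library by library. Of these, 6 were higher with CIP. Among the 6, SNHG16 hosts box C/D snoRNAs alone and the others host H/ACA snoRNAs alone. SNHG11, which holds 2 H/ACA snoRNAs (SNORA71E and SNORA60), had 22.1, 19.3 and 26.7 CPM in CIP libraries and 4.65, 3.74 and 5.43 CPM in DMSO libraries. Every CIP library lay above every DMSO one, and the log2 fold change was 2.30 ± 0.21 (SE; edgeR adjusted p = 5.3e-12). SNHG17 lies 11.3 kb from SNHG11 on chromosome 20 on the opposite strand and holds 4 snoRNAs of the SNORA71 family. It had 135, 123 and 153 CPM in CIP libraries and 46.8, 47.9 and 48.2 CPM in DMSO libraries, a log2 fold change of 1.52 ± 0.09 (edgeR adjusted p = 3.1e-17). Both members of this pair were therefore higher, with no overlap between groups.

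DANCR, described in the literature as an RNA that restrains differentiation of epidermal progenitor cells, holds SNORA26. It had 86.4, 85.4 and 91.9 CPM in CIP libraries and 25.1, 29.8 and 29.5 CPM in DMSO libraries. That was a 3.13-fold difference (log2 1.64 ± 0.10, edgeR adjusted p = 1.4e-16), with a small spread inside each group. SNHG16, which holds the 3 box C/D snoRNAs of the SNORD1 family, had the lowest adjusted p of all host genes. Its levels were 356, 349.7 and 371 CPM in CIP libraries and 123, 124 and 134 CPM in DMSO libraries. The groups lay far apart, 2.82-fold (edgeR adjusted p = 3.4e-20).

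SNHG7, host of SNORA17A and SNORA17B, had 160.5, 155 and 168 CPM in CIP libraries and 51.9, 63.7 and 66.3 CPM in DMSO libraries. Its log2 fold change was 1.41 ± 0.08 (edgeR adjusted p = 1.1e-16). SNHG4, which holds SNORA74A and SNORA74D, had 27.8, 31.9 and 27.3 CPM in CIP libraries and 12.8, 12.3 and 17.5 CPM in DMSO libraries, a log2 fold change of 1.04 ± 0.16 (edgeR adjusted p = 3.8e-07). In both genes the groups did not overlap. SNHG7 overlaps DIPK1B on the other strand, and DIPK1B itself was lower, at 1.21 ± 0.516 CPM with CIP and 4.14 ± 0.970 CPM with DMSO. It also overlaps LOC124900276 on its own strand. That gene was higher, at 2.85 ± 0.341 CPM with CIP and 1.30 ± 0.637 CPM with DMSO. DIPK1B passed the low-count filter only with its DMSO counts and LOC124900276 only with its CIP counts, so no p is given for them. SNHG4 shares its strand and part of its span with MATR3, a nuclear matrix protein gene that stood at 227 ± 18.5 CPM in CIP and 153 ± 8.57 CPM in DMSO libraries (log2 fold change 0.57, edgeR adjusted p = 1.3e-08). Reads of such overlapping genes cannot be separated with certainty, because neither the strand setting of the counting nor its annotation release is given in the sources used here.

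**Figure D2:**
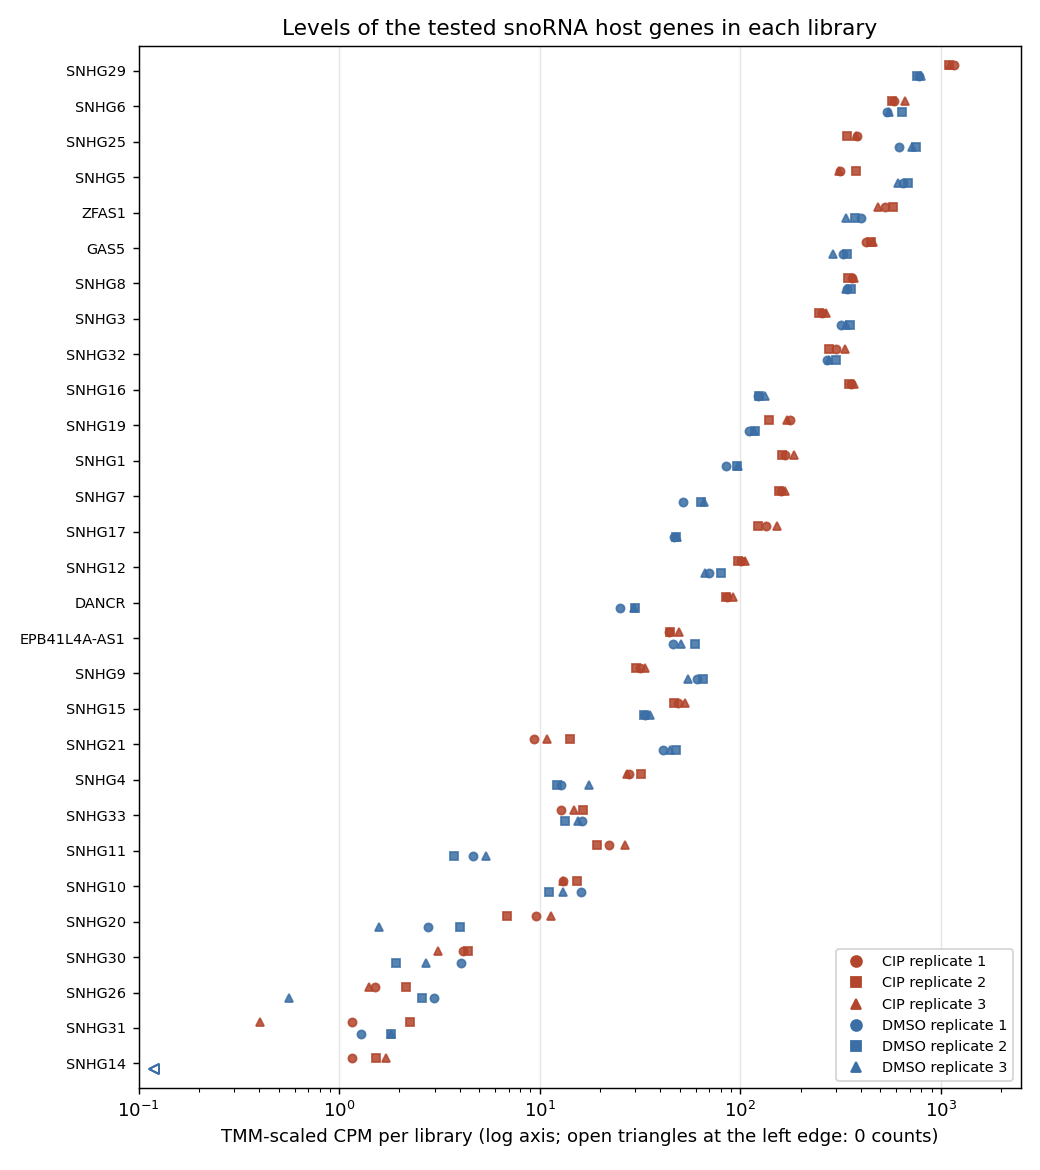
TMM-scaled CPM (log axis) of each tested host gene in the 3 CIP and 3 DMSO libraries, ordered by mean level; open triangles at the left edge mark 0 counts. The widest gaps without overlap are seen in SNHG11, SNHG21 and DANCR, apart from SNHG14, while SNHG6, SNHG8 and SNHG32 overlap.

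The 6 host genes with the highest mean level are described next, and they did not share a direction. SNHG29, which holds SNORD49A, SNORD49B and SNORD65, had the most counts. It stood at 1162, 1106 and 1109.7 CPM in CIP libraries and at 775, 761 and 801 CPM in DMSO libraries (log2 fold change 0.53 ± 0.06, edgeR adjusted p = 8.5e-10). ZFAS1, a transcript that starts beside ZNFX1 and holds 3 SNORD12 snoRNAs, had 525, 575 and 486 CPM in CIP and 399, 373 and 338 CPM in DMSO libraries (log2 fold change 0.52 ± 0.07, edgeR adjusted p = 4.4e-08). Both were higher with CIP in every library, by about the same factor. GAS5, which holds 10 box C/D snoRNAs and 1 H/ACA snoRNA, had 422, 449 and 459.7 CPM in CIP libraries and 326, 341 and 292 CPM in DMSO libraries. Its log2 fold change of 0.47 ± 0.07 (edgeR adjusted p = 9.9e-08) was the median of the tested host genes.

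SNHG6, the second in level, holds SNORD87. It had 586, 572 and 663 CPM in CIP libraries and 537, 641 and 554 CPM in DMSO libraries, and these ranges overlapped. Its log2 fold change was 0.07 ± 0.07 (edgeR adjusted p = 0.35), and -0.16 with library totals alone (adjusted p = 0.028), so its direction rests on the scaling. SNHG25 and SNHG5 were clearly lower. SNHG25, a short gene of 340 bases around SNORD104, had 381, 342 and 380.1 CPM in CIP libraries and 617, 754 and 719 CPM in DMSO libraries (log2 fold change -0.92 ± 0.07, edgeR adjusted p = 6.3e-14). SNHG5, found at a chromosomal breakpoint of a B-cell lymphoma and host of SNORD50A and SNORD50B, had 315, 380.0 and 311 CPM in CIP and 647, 687 and 615 CPM in DMSO libraries (log2 fold change -0.95 ± 0.07, edgeR adjusted p = 5.6e-14). For both genes all DMSO libraries lay above all CIP ones.

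SNHG21, the host of SCARNA15, was the host gene with the largest fall. It had 9.37, 14.1 and 10.9 CPM in CIP libraries and 41.1, 48.1 and 44.4 CPM in DMSO libraries, with no overlap (log2 fold change -1.95 ± 0.15, edgeR adjusted p = 4.2e-14). SNHG9, the host of SNORA78, was lower at 31.8 ± 1.64 CPM with CIP and 60.6 ± 5.28 CPM with DMSO. SNHG3, the host of SNORA73A and SNORA73B, was lower at 257 ± 11.5 CPM with CIP and 335 ± 17.9 CPM with DMSO. SNHG3 lies within the span of RCC1, the nucleotide exchange factor of the Ran GTPase. RCC1 stood at 121 ± 8.88 CPM with CIP and 105 ± 10.1 CPM with DMSO, and its small rise of 0.21 on the log2 scale (edgeR adjusted p = 0.022) was -0.02 with library totals alone.

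The remaining called host genes were all higher with CIP. In each of 5 genes the CIP libraries lay above the DMSO libraries. SNHG1, first described as the host of a cluster of U-series snoRNAs and holding 8 box C/D snoRNAs here, stood at 171 ± 12.9 CPM with CIP and 92.9 ± 6.70 CPM with DMSO. SNHG20, the host of SCARNA16, stood at 9.29 ± 2.28 CPM with CIP and 2.79 ± 1.22 CPM with DMSO. SEC14L1, a lipid-binding protein gene, overlaps it on the same strand and was also higher, at 17.9 ± 2.12 CPM with CIP and 6.30 ± 1.12 CPM with DMSO. SNHG20 and SEC14L1 thus differed in the same direction. SNHG15, the host of SNORA9, stood at 49.6 ± 3.18 CPM with CIP and 34.1 ± 1.15 CPM with DMSO. SNHG19, the host of SNORD60, stood at 163 ± 20.5 CPM with CIP and 115 ± 3.92 CPM with DMSO. SNHG12, host of 3 H/ACA snoRNAs and of SNORD99, stood at 101 ± 4.45 CPM with CIP and 72.5 ± 7.18 CPM with DMSO. Each of these 5 had log2 fold changes between 0.48 (SNHG12) and 1.71 (SNHG20).

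The 9 tested host genes that were not called are SNHG6, SNHG8, SNHG10, SNHG26, SNHG30, SNHG31, SNHG32, SNHG33 and EPB41L4A-AS1. At higher levels, SNHG8 stood at 359 ± 12.3 CPM with CIP and 345 ± 12.1 CPM with DMSO. SNHG32 stood at 305 ± 27.8 CPM with CIP and 283 ± 16.1 CPM with DMSO. EPB41L4A-AS1, the host of SNORA13, stood at 46.4 ± 3.01 CPM with CIP and 52.0 ± 6.64 CPM with DMSO. These 3 have SEs of 0.06 to 0.11 on the log2 scale, and with library totals alone SNHG8 was -0.17 (adjusted p = 0.0098) and EPB41L4A-AS1 -0.40 (adjusted p = 9.8e-04), while SNHG32 turned to -0.13 (adjusted p = 0.087). SNHG10 and SNHG33 stood between 11.1 and 16.5 CPM in all libraries, and SNHG10 also changed sign with library totals. SNHG26, SNHG30 and SNHG31 stood below 5 CPM with SEs of 0.37 to 0.54. Libraries of a group differed widely in 2 of them, with 30, 27 and 5 counts of SNHG26 in DMSO libraries and 10, 22 and 4 counts of SNHG31 in CIP libraries.

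The 5 host genes that could not be tested had few counts. MEG3 had 0, 0 and 8 counts in CIP libraries and 4, 12 and 6 counts in DMSO libraries. SNHG28 had 2, 5 and 0 counts with CIP and 1, 0 and 6 counts with DMSO. Neither gene had counts in all 3 CIP libraries. SNHG18 had 0 counts in all CIP libraries and 5, 0 and 0 counts in DMSO libraries, and SNHG22 had 0 counts with CIP and 4, 1 and 0 counts with DMSO. SNHG27 had 0 counts in all 6 libraries. A library's 3 counts, the limit that a count of 0 allows, correspond to 0.288 to 0.347 CPM, and this limit covers counting error only. These genes lie close to that limit in both groups.

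The host genes took a similar share of each library, with another make-up in the 2 groups. They took 0.531%, 0.522% and 0.536% of all counts in CIP libraries and 0.542%, 0.576% and 0.551% in DMSO libraries. The mean difference was -0.0264 percentage points (exact permutation test, 2-sided, p = 0.10, the smallest that 3 against 3 libraries allow). With TMM-scaled totals the shares were 0.575% with CIP and 0.515% with DMSO, so the sign of this difference rests on the scaling. Within the host gene counts, SNHG5 and SNHG25 together took 12.2% ± 0.527 with CIP and 26.1% ± 0.715 with DMSO (SD, n = 3 each). SNHG29 took 19.6% with CIP and 15.2% with DMSO, and SNHG16 took 6.25% with CIP and 2.47% with DMSO. The 15 genes called higher held 59.0% ± 0.683 of host gene counts with CIP and 40.2% ± 1.35 with DMSO. These shares follow from the calls and are given as a description. They need no scaling between libraries.

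**Figure D3:**
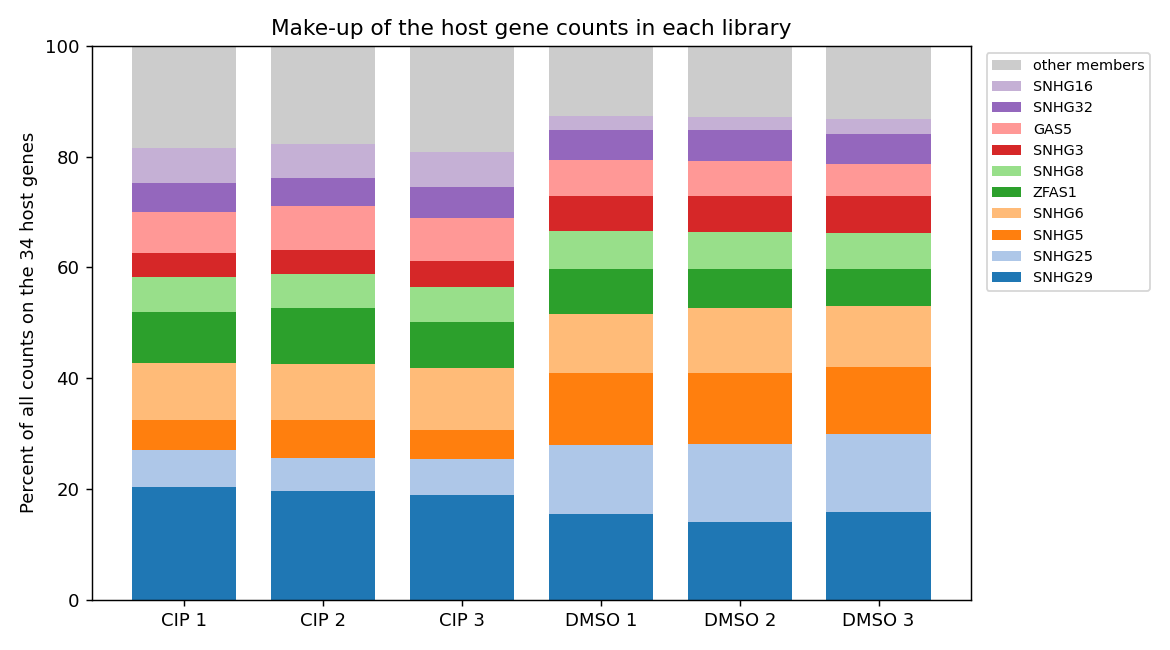
Percent of all counts on the 34 host genes taken by the 10 with the largest mean share and by the others together, 1 bar per library, CIP on the left. SNHG25 and SNHG5 together fill 11.8 to 12.8% of the CIP bars and 25.3 to 26.7% of the DMSO bars.

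Ratios between host genes inside a library show the same contrast without any scaling, for pairs chosen after their values were seen. The count of SNHG16 divided by that of SNHG5 was 1.13, 0.920 and 1.19 in CIP libraries and 0.191, 0.181 and 0.217 in DMSO libraries. The count of DANCR divided by that of SNHG21 was 9.22, 6.04 and 8.44 in CIP libraries and 0.610, 0.620 and 0.664 in DMSO libraries. In both ratios the groups were apart in every library.

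Among hosts of box C/D snoRNAs, of H/ACA snoRNAs and of scaRNAs alike, some were higher and some lower. Of 12 tested genes with box C/D snoRNAs alone, 6 were higher, 2 lower and 4 not called. SNHG14, which had to differ once tested, is among these 6. Of the 12 tested genes with H/ACA snoRNAs alone, 6 were higher, 2 lower and 4 not called. Both genes with the 2 types, GAS5 and SNHG12, were higher. Of the 3 tested scaRNA hosts, SNHG20 was higher, SNHG21 lower and SNHG10 not called. Of 13 tested genes that overlap another annotated gene, 8 were higher, SNHG14 among them, and 2 lower. Of 16 without one, 7 were higher and 3 lower. These counts stand beside 34.9% higher and 38.2% lower over all genes tested. No test of these differences in counts was made.

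Host genes close to each other moved both together and apart. Besides SNHG17 and SNHG11, SNHG16 and SNHG20 lie 523 kb apart on chromosome 17 and both were higher. SNHG3 and SNHG12 lie 67.6 kb apart on chromosome 1, and SNHG3 was lower while SNHG12 was higher. SNHG9 and SNHG19 lie 189 kb apart on chromosome 16, and SNHG9 was lower while SNHG19 was higher.

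Genes that start within 1 kb of a host gene in the opposite orientation are set beside it here. The search used the first listed start of each gene and only the 30 host genes with a listed promoter. It did not find ZNFX1 beside ZFAS1. SEMA5A next to SNHG18 and LOC107985216, a long noncoding RNA, next to SNHG28 had 5 counts or fewer in each library. GLRX5, a mitochondrial glutaredoxin of iron-sulfur cluster assembly, starts 178 bases from SNHG10. It stood at 204 ± 14.9 CPM with CIP and 55.2 ± 3.33 CPM with DMSO (log2 fold change 1.89, edgeR adjusted p = 4.9e-21), while SNHG10 was not called, at 0.04. TRAF7, a ubiquitin ligase that starts 424 bases from SNHG19, was higher by 1.19 on the log2 scale (edgeR adjusted p = 1.1e-13), and SNHG19 by 0.50. ZBTB37, a zinc finger gene whose start lies inside GAS5, stood at 9.94 ± 1.36 CPM with CIP and 9.94 ± 2.22 CPM with DMSO, while GAS5 was higher. ACAA2, a fatty acid oxidation enzyme that starts 490 bases from SNHG22, had 4, 0 and 0 counts with CIP and 279, 335 and 255 counts with DMSO, and SNHG22 was at 0 with CIP and near 0 with DMSO. BARD1, the partner protein of BRCA1, starts 546 bases from SNHG31. It had a log2 fold change of 0.24 (edgeR adjusted p = 0.0087) that became 0.01 with library totals alone (adjusted p = 0.89), while SNHG31 was not called, at -0.36.

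SNHG14 had counts in every CIP library and in no DMSO library. It runs over 595855 bases, chr15:24823608-25419462 on the plus strand, in an imprinted region where it is known to be active on the paternal copy. It holds the SNORD116 and SNORD115 clusters, and its far end runs antisense to UBE3A, the ubiquitin ligase gene of Angelman syndrome. SNHG14 had 10, 15 and 17 counts in CIP libraries and 0 counts in each DMSO library. Set against 3 counts over the group, it was at least 14.5-fold higher with CIP. No p is given, because it could be tested only through its CIP counts. Several genes inside its span were likewise at 0 in DMSO libraries.

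PWAR6, a noncoding RNA of this region, had 219, 228 and 257 counts with CIP and 0 counts in all 3 DMSO libraries, at least 243-fold higher. PWARSN had 135, 135 and 137 counts with CIP and 0 with DMSO, at least 141-fold higher. IPW, another imprinted noncoding RNA, had 115, 130 and 159 counts with CIP and 0 with DMSO, at least 139.6-fold higher. The 3 RNAs had steady counts across the CIP libraries. SNRPN, which encodes a spliceosomal Sm protein and is the region's best known imprinted gene, had 15, 9 and 27 counts with CIP and 0 with DMSO, and was at least 17.6-fold higher. PWAR5 had 17, 35 and 24 counts with CIP and 0 with DMSO. All of these were detected in every CIP library and in no DMSO one.

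UBE3A, in contrast, had 1439, 1714 and 1798 counts with CIP and 942, 923 and 898 counts with DMSO (log2 fold change 0.89 ± 0.07, edgeR adjusted p = 8.5e-13), so it was well detected in both groups. MKRN3, an imprinted gene outside the span of SNHG14, had 4, 4 and 10 counts with CIP and 0 with DMSO. MAGEL2 had 0 counts in all libraries, and NDN had 0 counts with CIP and 1, 0 and 0 counts with DMSO. The snoRNAs inside SNHG14 together had 6, 7 and 2 counts with CIP and 0 with DMSO.

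**Figure D4:**
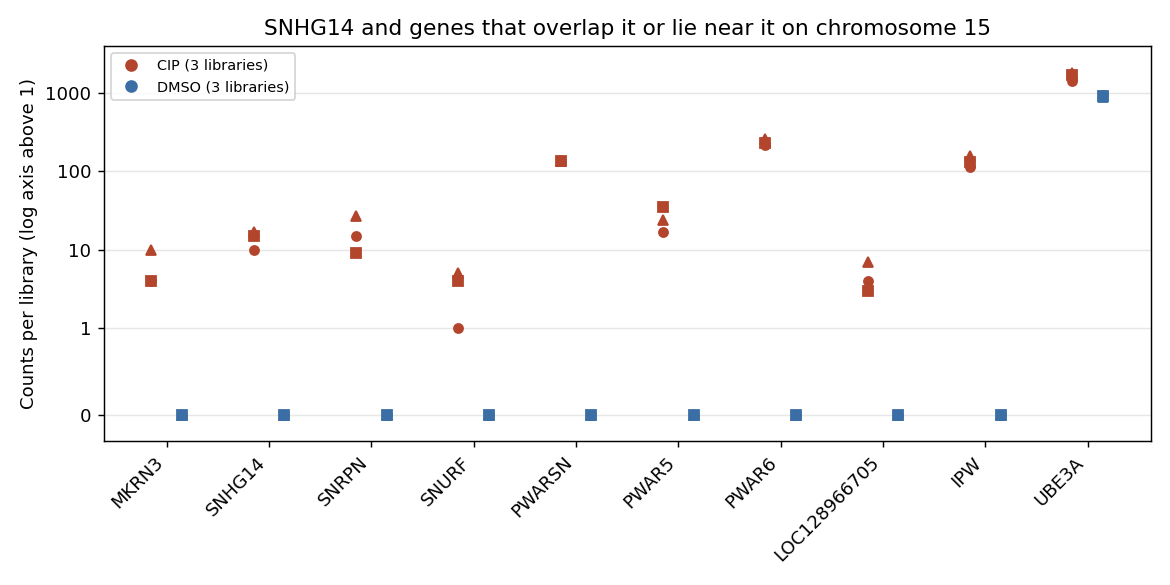
Counts per library (log axis above 1) of SNHG14 and of genes that overlap it or lie near it on chromosome 15, with the CIP libraries on the left of each pair; markers with equal counts cover each other. All genes shown except UBE3A had counts with CIP and 0 counts in the 3 DMSO libraries, while UBE3A had 898 to 942 counts there.

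Some snoRNAs inside the host genes were counted as genes of their own, and 2 were called against the direction of their host. QuantSeq is primed on poly(A) tails, which mature snoRNAs lack, and 18 of the 66 outside SNHG14 had none. Summed over these 66, the libraries held 574, 748 and 750 snoRNA counts with CIP and 313, 367 and 358 with DMSO. SNORD104 and SNORD50A held much of this. Without them the sums were 232, 355 and 336 counts with CIP and 184, 233 and 209 counts with DMSO. As raw counts, not scaled to library totals, these sums overlapped narrowly, at 232 with CIP and 233 with DMSO. By TMM-scaled CPM, the CIP libraries lay above in 36.1% and the DMSO libraries above in 39.3% of all genes tested. Of the 66 symbols, the 18 without counts could not lie apart. In SNORA13 and SNORD79 only the scaling parted an equal lowest CIP and highest DMSO count. With these included, the CIP libraries lay above the DMSO libraries in 9 of the 66 symbols and below them in 2. These 2 were SCARNA17, with 0 counts with CIP and 6, 14 and 16 with DMSO, and SNORD87, with 0 counts with CIP and 8, 2 and 3 with DMSO. Of 10 that could be tested, 5 were higher and 0 lower by edgeR, and 5 were not called. The same test called 34.9% of all genes higher and 38.2% lower. Among the 5 higher, SNORD60, SNORA24 and SNORD81 passed the low-count filter only with their CIP counts. The filter left out SCARNA17 and SNORD87, so the numbers higher and lower depend partly on it. What molecules these reads come from was not tested.

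SNORD104 differed opposite to its host SNHG25. It had 228, 252 and 279 counts with CIP and 106, 118 and 119 counts with DMSO, a log2 fold change of 1.19 ± 0.16 (edgeR adjusted p = 3.2e-08). Per 100 counts of SNHG25 there were 7.29 ± 0.319 of SNORD104 with CIP and 1.69 ± 0.186 with DMSO. Neither of the 2 SNHG25 transcripts in GENCODE v29 has an exon over SNORD104. SNORD50A, of SNHG5, showed the same contrast, with 114, 141 and 135 counts with CIP and 23, 16 and 30 counts with DMSO (log2 fold change 2.53 ± 0.27, edgeR adjusted p = 4.3e-10). Per 100 counts of SNHG5 there were 4.12 ± 0.296 of SNORD50A with CIP and 0.376 ± 0.165 with DMSO, and 2 of 23 SNHG5 transcripts have an exon over it. In both pairs the host was lower and the snoRNA symbol higher with CIP.

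SNORD60 and SNORA24 were also higher, and whether they differed by more than their hosts was not tested. SNORD60 had 30, 29 and 25 counts with CIP and 3, 3 and 3 counts with DMSO (log2 fold change 3.23 ± 0.57), or 1.85 ± 0.337 per 100 counts of SNHG19 with CIP and 0.268 ± 0.0234 with DMSO. SNORA24 had 20, 33 and 38 counts with CIP and 5, 2 and 14 counts with DMSO (log2 fold change 2.11 ± 0.54), and its host SNHG8 was not called. SNORD81, in GAS5, was called higher with CIP, with 28, 43 and 60 counts against 6, 40 and 18 counts with DMSO. Its groups overlapped, and it was not called with library totals alone. SNORD60, SNORA24 and SNORD81 passed the low-count filter only with their CIP counts, so no p is given for them. SNORD49A had 21, 33 and 21 counts with CIP and 24, 26 and 43 counts with DMSO and was not called (edgeR adjusted p = 0.53), while its host SNHG29 was higher. SNORD47, SNORD80, SNORD99 and SNORA74D were not called either.

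**Figure D5:**
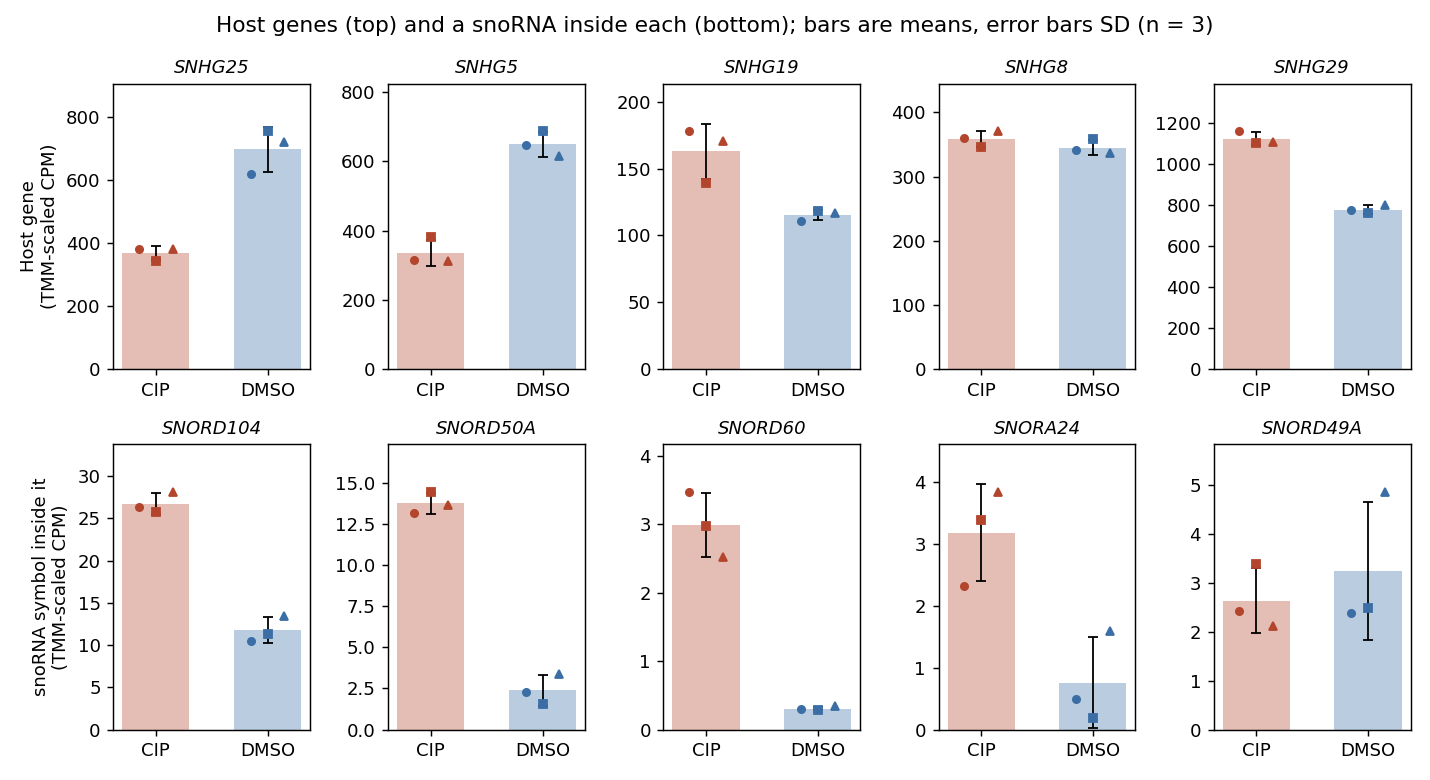
TMM-scaled CPM of 5 host genes (top) and of a snoRNA inside each (bottom); bars are means, error bars SD over 3 libraries, points the libraries, CIP on the left. SNHG25 and SNHG5 are lower with CIP (368 and 335 CPM, against 697 and 649.8 CPM with DMSO) while SNORD104 and SNORD50A are higher.

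Genes for the proteins that bind snoRNAs were mostly higher with CIP. The counts of this and the following lists stand beside 34.9% higher and 38.2% lower over all genes tested, and no list was tested against other genes. All 4 core proteins of box C/D particles were higher, namely FBL, the methyltransferase fibrillarin (log2 fold change 0.65), NOP58 (0.94), SNU13 (0.61) and NOP56 (0.29). Of the 4 core proteins of H/ACA particles, GAR1 (1.35), NHP2 (0.61) and NOP10 (0.25) were higher, while DKC1, the pseudouridine synthase dyskerin, was at -0.10 and not called. With library totals alone NOP56 (adjusted p = 0.41) and NOP10 (adjusted p = 0.79) were no longer called and DKC1 was called lower, at -0.33. GAR1 stood at 178 ± 13.6 CPM with CIP and 70.0 ± 3.74 CPM with DMSO. Of 12 assembly factors of these particles, 10 were higher and 0 lower, led by SHQ1 (1.08) and NAF1 (0.91), both H/ACA assembly proteins, with 7 higher and 1 lower under library totals.

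Of 11 enzymes that process introns and snoRNAs, 5 were higher, among them AQR (0.84), an intron-binding helicase, and EXOSC3 (0.56), an exosome subunit. In turn 4 were lower, among them TGS1 (-0.50), which trimethylates snoRNA caps. Over all genes 34.9% were higher and 38.2% lower. The median of the list was 0.22. With library totals alone 3 were higher and 4 lower, with a median of -0.01.

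Nonsense-mediated decay factors act on several spliced host RNAs, and 10 of 14 were called, near the 73.1% of all genes. Of these, 6 were higher and 4 lower, with a median of 0.21. With library totals alone 6 were higher and 5 lower, and the median was -0.02. SMG1, the kinase of UPF1, was higher (0.93), as were SMG8 (0.81) and CASC3 (0.80). UPF3B, an exon junction complex adaptor, was lower (-0.84). Of 14 regulators of 5′ TOP translation, 8 were higher and 2 lower, with a median of 0.39, and their 10 calls are also near the 73.1% of all genes. With library totals alone 6 were higher and 5 lower. LARP1, which binds the TOP start, stood at 488 ± 5.82 CPM with CIP and 250.4 ± 19.5 CPM with DMSO. EIF4EBP1, the repressor of cap-dependent translation, was lower, at 25.9 ± 1.22 CPM with CIP and 75.5 ± 2.95 CPM with DMSO.

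Protein-coding genes that host snoRNAs, many of them ribosomal protein genes, were mostly higher. Of 49 tested, 40 were higher and 7 lower, beside 34.9% higher and 38.2% lower of all genes. Their median log2 fold change was 0.63, beside 15 of 29 and 0.47 for the noncoding hosts, and this difference was not tested. With library totals alone 35 were higher and 7 lower. The largest difference was in HSPA8, a constitutive chaperone and host of SNORD14 snoRNAs, at 335 ± 13.5 CPM with CIP and 48.6 ± 9.22 CPM with DMSO. RPL27A stood at 8020.4 ± 72.7 CPM with CIP and 2706 ± 77.9 CPM with DMSO. EIF4A1 had 0 counts in all 6 libraries although most cells use it, so it was not counted as tested, and counts of genes with processed copies such as RPL23A and EEF1A1 are uncertain.

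Long noncoding RNAs that host no snoRNA showed no shared direction. Of 15 tested, 6 were higher and 4 lower, beside 34.9% and 38.2% of all genes, with a median of -0.14. With library totals alone 5 were higher and 7 lower, with a median of -0.37. MIR17HG, the host of a microRNA cluster, stood at 70.1 ± 2.76 CPM with CIP and 24.3 ± 1.58 CPM with DMSO. MALAT1, a nuclear RNA, stood at 4269 ± 79.0 CPM with CIP and 1603 ± 91.5 CPM with DMSO. KCNQ1OT1, an imprinted antisense RNA, was lower, at 22.3 ± 2.15 CPM with CIP and 91.9 ± 7.43 CPM with DMSO. MIR155HG had 0 counts with CIP and 22.0 ± 2.51 CPM with DMSO.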

How the data were processed

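Whole-number counts per gene symbol were deposited by the authors, 1 table per library, with no normalization as far as the values show. Per the submitters' processing notes, bcl2fastq 2.20.0.422, fastp, STAR, HTSeq and GRCh38 were used, in no stated role or order. Per the labels' protocols, libraries were made from 500 ng of total RNA with a Lexogen QuantSeq kit. Not given in the sources used here were the annotation release, the strand setting, the rule for reads that match several places and any use of molecular identifiers, so genes with copies or overlaps are uncertain. Totals were 8143657 to 10868396 counts. There were 0 columns of samples outside the series.

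Genes were tested with edgeR 4.0.16 (R 4.3.3, robust quasi-likelihood test, filterByExpr with a minimum count of 10, TMM, group alone, 2-sided, Benjamini-Hochberg over 12844 genes, called at adjusted p under 0.05). CPM are counts over TMM-scaled totals. SE is the log2 fold change over the square root of F. No library was a duplicate (chi-square per gene of 3.90 to 8.14 between libraries of a group). Spearman correlations across genes ran from 0.989 to 0.992 inside groups, against 0.804 to 0.813 between CIP and DMSO libraries. The steps were tested on simulated data. For a gene at 0 in a group, the fold is a bound against 3 counts over the group.

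Members and lists were chosen with earlier results of these data known. Values in every library are given for the 8 called host genes with the largest change at 10 CPM or more in the higher group and the 6 with the highest mean CPM, other genes by mean, and up to 4 called genes per other list. Some other genes are named for their position beside a host gene. A gene of the marker lists is not reported here by name. Alternatives were upper-quartile or RLE scaling, unscaled library totals, no filter, 1 CPM in 3 libraries, no robust fitting, DESeq2 1.42.0, limma-voom (limma 3.58.1), thinning, the replicate number as a block, each library left out, an adjusted p under 0.01, glmTreat beyond 1.5-fold and leaving out overlapping host genes.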

Additional observations from a re-analysis of the deposited data

How the results depend on the processing

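All 20 called host genes kept their call and direction under every alternative scaling, filter and tool, in each fit that left out a library, and with the replicate number as a block. Same-numbered libraries did not deviate together (Pearson's r across genes of -0.0188, -0.0271 and -0.00992), and the replicate block gave 15 higher and 5 lower host genes, a median of 0.48 and 70.5% of all genes called. Library totals alone gave 8 lower host genes in place of 5 and a median of 0.24. With them SNHG32 (-0.13), SNHG6 (-0.16), SNHG8 (-0.17) and SNHG10 (-0.19) changed sign. Upper-quartile scaling turned SNHG10 to -0.0032. With no filter 33 host genes were tested, the median was 0.12 and 46.2% of all genes were called, by construction with more genes at low counts. Beyond 1.5-fold 9 host genes were higher, SNHG14 among them. Without the host genes that overlap another gene, 7 higher and 3 lower were left, out of fewer genes.

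Leaving out 1 library gave 15 to 16 higher and 5 lower host genes, medians of 0.40 to 0.50, and 69.2% to 71.6% of all genes called. Signs of uncalled genes changed in 6 cases. SNHG33 (-0.13 to 0.066) turned positive without CIP replicate 1 and, at 0.012, without DMSO replicate 1, SNHG10 (-0.089 to 0.18) negative without DMSO replicate 2 and, at -0.032, without CIP replicate 2, SNHG31 (-1.08 to 0.081) positive without CIP replicate 3 and SNHG26 (-0.72 to 0.061) positive without DMSO replicate 1. SNHG32 was called higher, at 0.18, without CIP replicate 2 (adjusted p = 0.023). The difference in summed share was -0.0460 points without SNHG29, -0.0336 to -0.0166 points with a library left out, and 0.0598 points with TMM-scaled totals, a setting chosen after seeing the data. The cause of these shifts was not tested. For host genes at 0 counts the depth allows levels of up to 0.288 to 0.347 CPM, by library. The numbers of called genes in the other lists stayed within 1.5 times under all these settings.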
